A study of Mus musculus with 3 samples.

Results

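Genes of the γδ T cell receptor were followed through early thymocytes. Trdc is the constant gene of the δ chain, and Tcrg-C1, Tcrg-C2, Tcrg-C3 and Tcrg-C4 are the 4 constant genes of the γ chain. Trgv2 is a γ variable segment. These 6 genes were chosen by symbol, and all 6 were found in each run, among 28692 genes listed in the earlier runs and 32285 in the third. They were counted in the 21879 of 23283 cells that held 500 to 5000 genes and at most 7% mitochondrial counts, or 5516, 8852 and 7511 cells by run. Thymocytes came from C57BL/6 mice at week 6, with 4 thymi pooled for each run, and no treatment or transgene was used. The first run held total double negative (DN) and TCRγδ+ thymocytes. The second held DN1 and DN2 thymocytes without TCRγδ+ cells. For the third, DN1 plus DN2, DN3 and TCRγδ+ thymocytes were sorted apart and then mixed. Each sort was made once and gave 1 10x 3′ library, so runs are set side by side as values with no test.

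The γδ receptor pairs a δ chain with a γ chain, and each chain is assembled by RAG recombinase, which joins a variable segment to a joining segment in front of a constant gene. In the mouse the γ locus is a row of cassettes, each with its own variable segments, 1 joining segment and 1 constant gene, so a variable segment mostly joins within its own cassette. The γ constant genes are also transcribed from the unrearranged locus under control of interleukin 7 receptor and STAT5 signals, and δ constant transcripts arise before the receptor is complete, so that a constant transcript alone does not mark a γδ cell. The δ locus lies inside the α locus and is deleted when the α chain rearranges. γδ and αβ lineages separate during the DN stages, and αβ-lineage cells pass through a checkpoint that uses pre-TCRα, the product of Ptcra.

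The γ members lie together on chromosome 13 (GRCm38, which is mm10, by GENCODE vM21). Tcrg-C1 lies at chr13:19214103-19217024 on the plus strand, Tcrg-C3 at chr13:19260884-19263528 on the plus strand and Tcrg-C2 at chr13:19304649-19307551 on the minus strand. Trgv2 follows at chr13:19336573-19337167, on the same minus strand as Tcrg-C2, and Tcrg-C4 at chr13:19344558-19352756 on the plus strand. Trdc lies on chromosome 14, at chr14:54142851-54148868 on the plus strand. Trgv2 is named here as the deposited files name it, since several numberings of γ variable segments are in use.

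The constant genes are close copies of each other, which bears on how surely a read can be given to one of them. Over the 330 bases of the first exon, Tcrg-C1 and Tcrg-C2 differed at 9 bases and were 97.3% identical, Tcrg-C1 and Tcrg-C3 were 96.1% identical, and Tcrg-C4 was 81.2% to 82.1% identical to the others. The short middle exons encode the stalk between the constant domain and the membrane, and they differ in number and length. These exons are printed from the GENCODE transcripts, 5′ to 3′ on the strand of the gene, with the 26 bases that Tcrg-C1, Tcrg-C2 and Tcrg-C3 share in capitals. They lie at chr13:19215864-19215908 for Tcrg-C1, chr13:19305769-19305798 for Tcrg-C2 and chr13:19262644-19262687 for Tcrg-C3. Those of Tcrg-C4, exons 2 and 3, lie at chr13:19349536-19349589 and chr13:19350330-19350374.
Tcrg-C1: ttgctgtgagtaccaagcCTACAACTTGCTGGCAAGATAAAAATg
Tcrg-C2: ttgCTACAACTTGCTGGCAAGATAAAAATg
Tcrg-C3: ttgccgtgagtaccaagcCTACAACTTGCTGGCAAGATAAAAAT
Tcrg-C4 exon 2: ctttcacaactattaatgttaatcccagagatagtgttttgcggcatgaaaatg
Tcrg-C4 exon 3: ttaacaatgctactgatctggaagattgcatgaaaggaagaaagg

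Here the exon of Tcrg-C2 had 30 bases and lacked the stretch before the shared part that Tcrg-C1 carries in its 45 bases, while Tcrg-C4 had a pair of middle exons, with 54 and 45 bases. Reads of a 3′ library fall near the end of a transcript. There, over the windows of 90 bases that start in the last 400 bases, 15 of 311 windows of Tcrg-C1 and 15 of 311 of Tcrg-C2 were found unchanged in another gene, against 39 of 311 for Tcrg-C3 and 0 of 311 for Tcrg-C4, Trdc and Trgv2. The shared windows lay in the other γ constant genes. The longest annotated transcript of Tcrg-C3 was 648 bases long, against 924 for Tcrg-C1, 914 for Tcrg-C2 and 985 for Tcrg-C4, so that counts of Tcrg-C3 are the least certain of the 6.

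Cells were placed in 12 gates by the UMIs (unique molecular identifiers, 1 for each counted molecule) of genes that are no members. A gene was called + with 1 or more UMIs. B cells and myeloid or dendritic cells were set aside first, by at least 2 of their markers. Each other cell went to the first gate it met among Ptcra+Il2ra+, Ptcra+Il2ra-, Kit+Il2ra+, Kit-Il2ra+, Kit+, Cd8+, Sox13+, Il2rb+, Il7r+ and the rest, so that a Sox13+ cell held no UMI of Ptcra, Il2ra, Kit or Cd8. Kit and Il2ra (CD25) are the stage markers of DN1 to DN3 cells, Sox13 encodes a transcription factor of γδ thymocytes, and Il2rb the β chain of the interleukin 2 and 15 receptors. A gate is a transcript pattern and not a sorted population. Levels are given as CPM, the UMIs of a gene per 1000000 UMIs of all genes, summed over the cells of a gate. Intervals are exact 95% Poisson intervals for levels and exact Clopper-Pearson 95% intervals for shares, and both cover counting error only.

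Other genes checked the gates. In the 3 runs in order, Rag1 was at 107, 75.1 and 279.5 CPM in the Ptcra+Il2ra+ gate and at 4.64, 4.35 and 5.54 CPM in the Sox13+ gate. Etv5 was at 149.9, 264 and 211 CPM in the Sox13+ gate and at 4.28, 2.29 and 2.71 CPM in the Ptcra+Il2ra+ gate. The markers of early progenitors in the Kit+ gate were Flt3 at 0, 2.84 and 11.7 CPM, Cd34 at 3.62, 66.1 and 70.8 CPM and Hhex at 7.24, 83.1 and 59.1 CPM. All 3 were higher there than in the other gates of T-lineage transcripts in the later runs, but not in the first. Sox13, which marks another gate, was at 57.9, 24.2 and 99.1 CPM in the Kit+ gate, so this gate is called by its pattern only. In the Il2rb+ gate Klrd1 was at 39.8, 897 and 301 CPM and Tbx21 at 0, 57.1 and 38.5 CPM. Trac, the α constant gene, was at 153, 1331 and 489 CPM there. Median UMIs in the kept cells were 5989.5, 4844 and 8507. The first run shared 72 cell barcodes with the second and 1 with the third, which shared 0 with the second.

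Trdc was found in most cells of every sort, including the second, from which TCRγδ+ cells had been left out. A Trdc UMI was present in 77.2% of cells of the first run (interval 76.0% to 78.3%), 61.8% of the second (60.8% to 62.8%) and 63.8% of the third (62.7% to 64.9%). After every cell was thinned to 2000 UMIs, which removes the difference in depth, the shares were 51.0%, 44.5% and 38.0%. The third run became the lowest after thinning, and 48 of its cells held fewer than 2000 UMIs and were left out. B cells, which should lack the gene, gave the background. In the third run 15.3% of 412 cells in the B gate held a Trdc UMI (12% to 19.1%), at a median of 5129 UMIs, and 8.56% after thinning. The first and the second runs had 5 and 12 cells in this gate, too few for a background.

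The γ constant genes were found as widely. Tcrg-C1 UMIs were present in 77.7%, 80.3% and 74.9% of cells in the 3 runs, Tcrg-C2 in 85.1%, 79.9% and 73.6% and Tcrg-C4 in 66.8%, 62.0% and 60.7%. In B cells of the third run the shares were 16.3%, 13.3% and 11.7%. Tcrg-C3 was rare, with a UMI in 2.76%, 4.95% and 1.72% of cells against 0.243% of B cells of the third run. Trgv2 differed most between runs, with a UMI in 16.4%, 7.09% and 47.0% of cells, and in 7.12%, 3.21% and 22.9% after thinning, so that the third run stayed the highest at equal depth. In B cells of that run 8.98% held a Trgv2 UMI. The third run also differs from the others in sort and in the gene list used for counting. The methods of the study name more than 1 reagent kit and more than 1 Cell Ranger version, without the run each was used for. Sort, gene list, kit and software version cannot be told apart here.

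**Figure D1:**
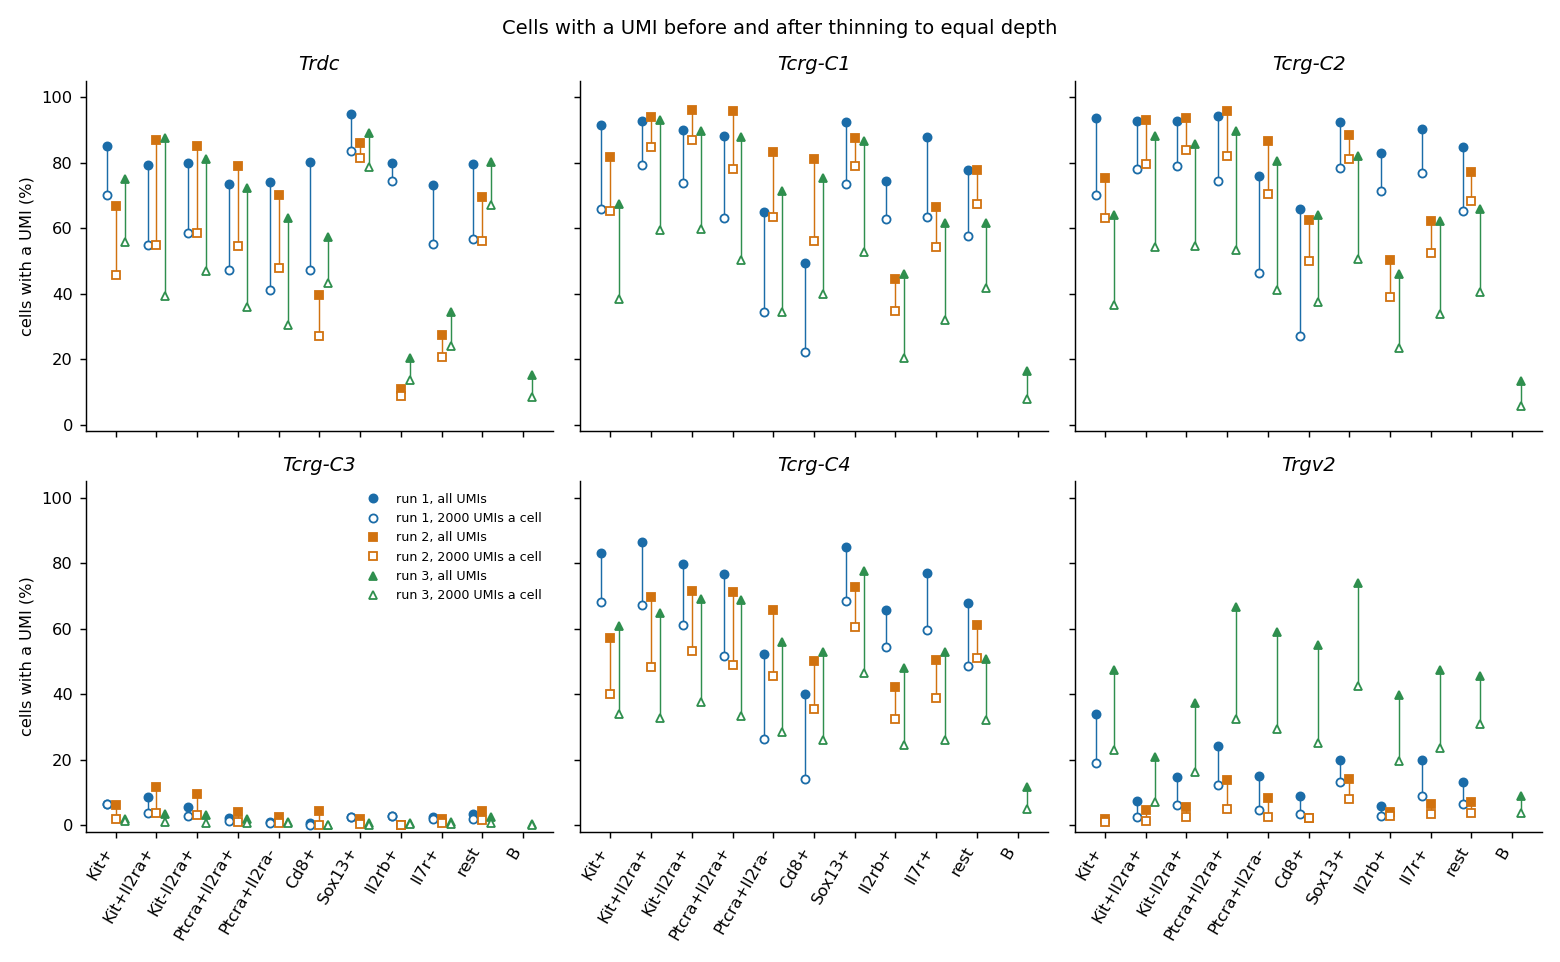
Share of cells with at least 1 UMI of each gene (y axis, %) by transcript gate (x axis) and run (color and symbol), for gates with 20 or more cells. Filled symbols use all UMIs and open symbols 2000 UMIs a cell. Trdc is low in the Il2rb+ gate of the second and the third run, at 11.0% and 20.4%, and Trgv2 is higher in the third run than in the others in every gate drawn for several runs.

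Most cells held transcripts of more than 1 γ constant gene. At least 2 of the 4 were detected in 81.6%, 80.0% and 74.9% of cells in the 3 runs, and in 55.8%, 67.2% and 38.3% after thinning. In the Sox13+ gate the shares were 96.7%, 89.7% and 88.7%, against 10.4% in B cells of the third run. Cells with a Trdc UMI and no γ constant UMI made up 4.35%, 0.599% and 1.84% of cells, while 20.9%, 31.6% and 26.9% held γ constant UMIs without Trdc. Doublets were not removed for these counts.

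Trdc was highest in the Sox13+ gate in the second run and the third, and in the first the Il2rb+ gate lay level with it. Its level in the Sox13+ gate was 1346 CPM in the first run (1258 to 1438, 121 cells), 2003 CPM for the second (1929 to 2079, 341 cells) and 1318 CPM for the third (1289 to 1348, 693 cells). In the Ptcra+Il2ra+ gate it was 363, 528 and 272 CPM. The Sox13+ values lay above the Ptcra+Il2ra+ values in all 3 runs, and the groups did not overlap. With counts summed per gate and run, the run as a block and all gates in 1 fit, the difference was 2.02 on the log2 scale (SE 0.40, n = 3 runs, adjusted p = 3.26e-04, edgeR quasi-likelihood test). This call was kept under all 12 alternatives, with values of 1.89 to 2.40. No γ member passed the test between these gates. The γ variable segments Tcrg-V4 and Tcrg-V1, which are no members, were higher by 1.38 (SE 0.31) and 2.29 (SE 0.31). Their adjusted p were 0.00136 and 3.22e-06 in edgeR. Tcrg-C4 was at 796, 553 and 347 CPM in the Sox13+ gate and at 370.3, 455 and 234 CPM in the Ptcra+Il2ra+ gate, higher in 3 of 3 runs with intervals that did not overlap. Its difference was 0.65 (SE 0.28, adjusted p = 0.0758) in edgeR, and it passed with no upper limit on genes (adjusted p = 0.0316) and with gates at 2 UMIs (adjusted p = 0.0435). Trgv2 was higher by 0.65 (SE 0.31, adjusted p = 0.115), and without the first run by 0.71 (adjusted p = 0.00317). Tcrg-C1, Tcrg-C2 and Tcrg-C3 differed by 0.21, 0.17 and -0.24, with adjusted p of 0.599 to 0.744 by the same test. Of the 6 members, 1 was called higher and 0 lower, while 16.8% of the 12676 genes tested were called higher and 15.1% lower.

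In the second run, which was sorted without TCRγδ+ cells, the Sox13+ gate still held the highest Trdc level of all gates of the 3 runs. A Trdc UMI was found in 86.2% of its cells (82.1% to 89.7%) at a median depth of 3208 UMIs, and in 81.5% after thinning. Cells of this gate with Trdc also held Tcrg-C1 at 1286 CPM and Tcrg-C2 at 1297 CPM, while the 47 cells without Trdc held them at 657 and 801 CPM. Trac UMIs were present in 29.3% of the former and 70.2% of the latter. The third run gave 32.0% of 618 cells with Trdc and 84% of 75 cells without.

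The Il2rb+ gate differed between runs in Trdc. It held 1461 CPM in the first run (1274 to 1667), from 35 cells, but 164 CPM in the second (153 to 176, 1433 cells) and 194 in the third (184 to 204, 1102 cells). The first run's gate thus lay level with Sox13+ cells, whereas the others were the lowest among gates of T-lineage transcripts in their run. In the second and the third runs most of these cells held Trac and not Trdc. Of the cells without Trdc, 94.9% and 90.2% held a Trac UMI, and of those with Trdc 69.6% and 58.2%. The γ constant genes remained detectable in the gate. Tcrg-C1 was found in 44.6% and 46.1% of its cells and Tcrg-C4 in 42.3% and 48.0% in the second and the third runs, at median depths of 2830 and 6112 UMIs. In the third run these shares lay above the 16.3% and 11.7% of B cells, also after thinning (20.3% and 24.5% against 7.82% and 4.89%).

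Against the Il2rb+ gate, Sox13+ cells were higher in most members. Trdc was higher by 1.75 on the log2 scale (SE 0.43, adjusted p = 0.00369), Tcrg-C1 by 1.13 (SE 0.34, adjusted p = 0.0159), Tcrg-C2 by 1.06 (SE 0.23, adjusted p = 0.00147) and Trgv2 by 1.2 (SE 0.36, adjusted p = 0.0169), by the same edgeR test. Tcrg-C3 and Tcrg-C4 did not pass, at 1.51 (SE 0.69) and 0.74 (SE 0.30), with adjusted p of 0.118 and 0.0756 from edgeR. This made 4 of 6 members called higher and 0 lower, where 9.73% of all genes were called higher and 11.9% lower. Of the pathway genes 10 were higher and 1 lower, the latter Trac by -2.34 (SE 0.42). Of the 7 other γ and δ segments tested 5 were higher and 0 lower. The first run did not show it for Trdc, at 1346 against 1461 CPM. Without the second run the calls were lost, with adjusted p of 0.236 for Trdc, 0.225 for Tcrg-C1, 0.115 for Tcrg-C2 and 0.151 for Trgv2 in edgeR. Without the third run the values were 0.179, 0.0834, 0.069 and 0.205.

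**Figure D2:**
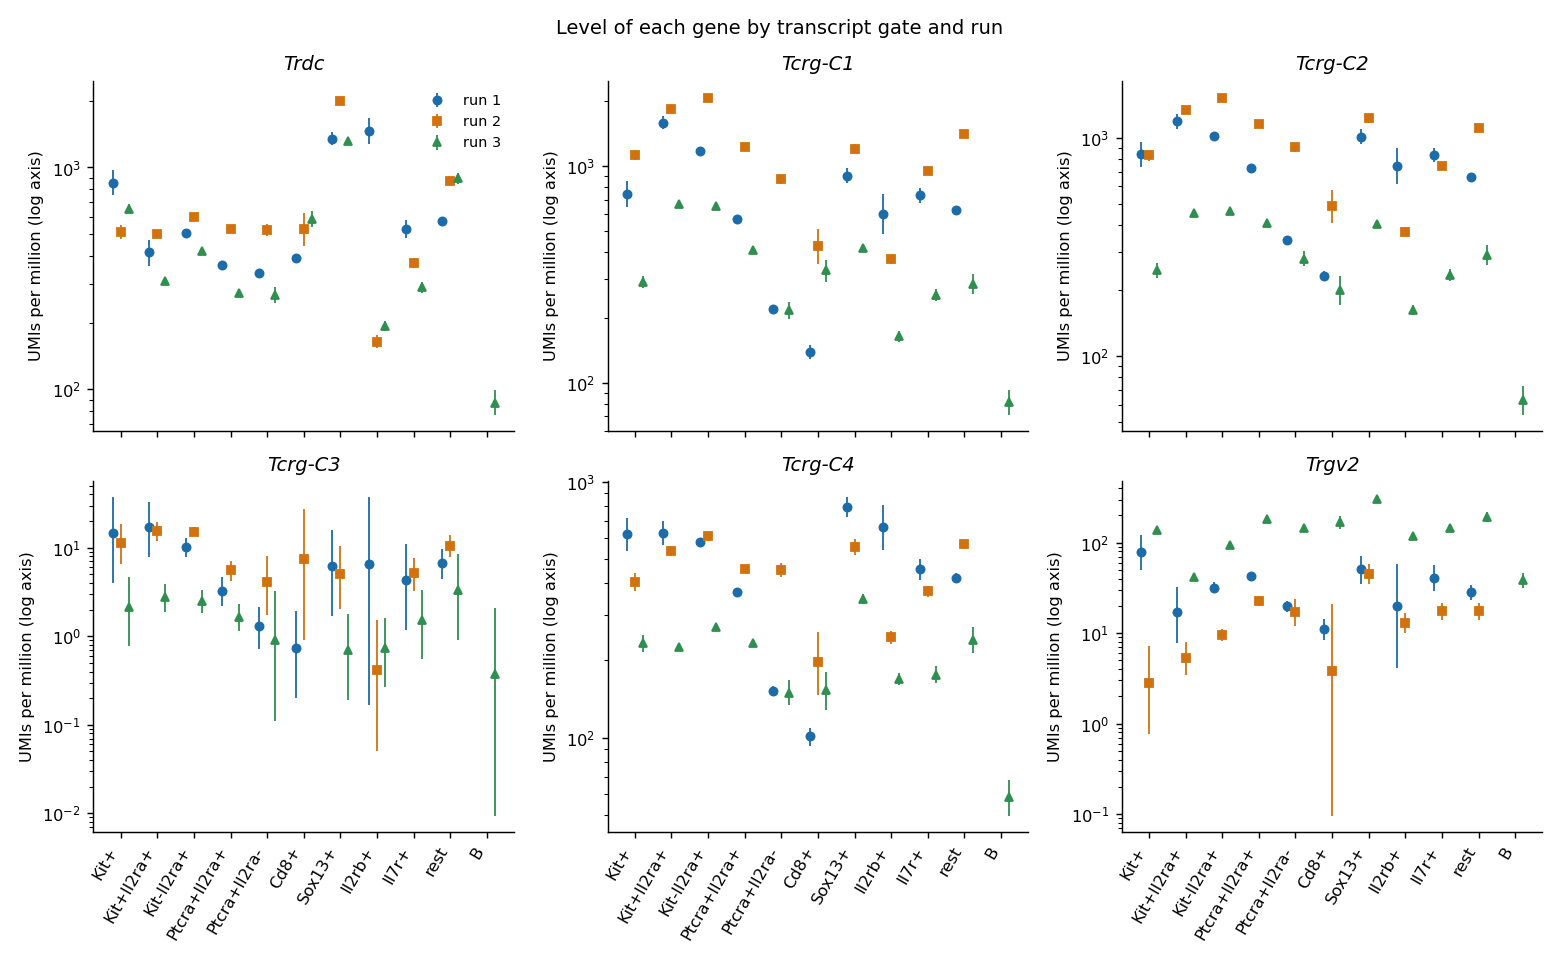
Level of each gene (y axis, CPM, log axis) by transcript gate (x axis) and run (color and symbol), for gates with 20 or more cells; bars are exact 95% Poisson intervals and levels of 0 are not drawn. Trdc is at 1318 to 2003 in the Sox13+ gate and at 1461 in the Il2rb+ gate of the first run. Tcrg-C1 is highest in the Kit+Il2ra+ gate of the first and the third run, at 1587 and 671. In the second run it is highest in the Kit-Il2ra+ gate, at 2066. Trgv2 is between 41.9 and 302 in the third run outside the B and myeloid gates.

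Tcrg-C1 had another order of gates than Trdc. In the Kit+Il2ra+ gate, the pattern of DN2 cells, it was at 1587, 1843 and 671 CPM by run. In the Ptcra+Il2ra+ gate, the pattern of DN3 cells, the levels were 571, 1229 and 411 CPM, and in the Ptcra+Il2ra- gate 219, 869 and 216 CPM. Each run fell at both steps. The second run was sorted for DN1 and DN2 cells only, yet 1352 of its cells fell in the Ptcra+Il2ra+ gate. The paper used Ptcra among the genes that separate DN2b from DN2a cells. In that run the gates are therefore patterns within the DN1 and DN2 sort. Neither step passed the test, with log2 differences of -0.90 (SE 0.31, adjusted p = 0.11) and -0.86 (SE 0.31, adjusted p = 0.32) in edgeR. Tcrg-C2 was at 1193, 1337 and 454 CPM in the Kit+Il2ra+ gate, at 726, 1152 and 406 CPM in the Ptcra+Il2ra+ gate and at 342, 905 and 279 CPM in the Ptcra+Il2ra- gate. Its log2 differences were -0.32 (SE 0.22, adjusted p = 0.56) and -0.60 (SE 0.22, adjusted p = 0.317) by edgeR.

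Tcrg-C3, which has the fewest counts, fell between the Kit+Il2ra+ and the Ptcra+Il2ra+ gates. It was at 17.1 CPM in the Kit+Il2ra+ gate of the first run (7.82 to 32.5), 15.4 CPM for the second (11.9 to 19.6) and 2.78 CPM for the third (1.89 to 3.94). In the Ptcra+Il2ra+ gate the levels were 3.29, 5.54 and 1.65 CPM. The 2 groups overlapped across runs, but each run was lower in the later gate. In the test the difference was -1.35 on the log2 scale (SE 0.29, adjusted p = 0.004, edgeR). With a gate threshold of 2 UMIs the adjusted p was 0.261, with cells thinned to 2000 UMIs 0.543 and without the second run 0.194, all by edgeR.

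Trgv2 went the opposite way. By run it rose from 17.1 to 43.1, from 5.37 to 22.8 and from 41.9 to 185 CPM between the Kit+Il2ra+ and the Ptcra+Il2ra+ gates. The log2 difference was 2.17 (SE 0.37, adjusted p = 2.87e-04, edgeR), and the call was lost without the third run (adjusted p = 0.152). In the third run the share of cells with a Trgv2 UMI was 20.8% (17.9% to 23.9%) in the Kit+Il2ra+ gate and 66.6% (64.4% to 68.8%) in the Ptcra+Il2ra+ gate, although the former cells were deeper, at a median of 14871 against 8532 UMIs. Of the members, 1 was called higher and 1 lower in this comparison, where 2.15% of all genes were called higher and 3.12% lower. Trdc differed by -0.05 (SE 0.39) and Tcrg-C4 by -0.28 (SE 0.28), with adjusted p of 0.995 and 0.748 from edgeR.

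Other genes of the pathway also changed at this step. Of 19 pathway genes tested that set no gate, 6 rose and 0 fell. Rag1, a subunit of the recombinase, rose by 3.36 on the log2 scale (SE 0.42, adjusted p = 4.78e-06) and Rag2, the other subunit, by 1.10 (SE 0.24, adjusted p = 0.004) in edgeR. Cd3d, Cd3e and Cd3g, the signaling chains that carry the receptor, rose by 2.30, 1.24 and 0.85 and Tcf12, an E protein gene, by 0.57. The genes of Stat5a and Stat5b, the factors downstream of the interleukin 7 receptor, differed by -0.04 and -0.19, with adjusted p of 0.978 and 0.626 from edgeR. The median over the pathway list was 0.32, against 0.03 over all genes tested. Of 7 other γ and δ segments tested, 2 rose and 0 fell. Tcrg-V4 rose by 2.69 (SE 0.41, adjusted p = 8.29e-05) and Tcrg-V1 by 1.38 (SE 0.41, adjusted p = 0.047) in edgeR. The tests matched genes by identifier over the 3 runs, while CPM values were read by symbol. Tcrg-V1 carried this symbol in the third run only, so its levels are given for that run. They were 3.40 CPM in the Kit+Il2ra+ gate and 7.41 CPM in the Ptcra+Il2ra+ gate.

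Between the Kit+ and the Kit+Il2ra+ gates, only Trgv2 was called. It was at 79.7, 2.84 and 137 CPM in the Kit+ gate and at 17.1, 5.37 and 41.9 CPM in the Kit+Il2ra+ gate, so it was lower in the latter in the first run and the third, while the intervals of the second overlapped (0.774 to 7.28 and 3.40 to 8.05). The log2 difference was -1.56 (SE 0.42, adjusted p = 0.0452, edgeR), and the call was lost under 8 of 12 alternatives. Tcrg-C1 and Tcrg-C2 were higher by 1.02 (SE 0.32) and 0.70 (SE 0.22), with adjusted p of 0.105 and 0.109 by edgeR. Without the first run the adjusted p in edgeR were 0.012 and 2.84e-04, and without the second run 0.352 and 0.466. Both passed with gates at 2 UMIs (0.0237 and 0.00411), and Tcrg-C2 with doublets left out (0.0433). Neither passed without the third run, in DESeq2 or after thinning to 2000 UMIs. The first run had 47 Kit+ cells. Over all genes 0.323% were called higher and 1.93% lower. The pathway genes moved beside Trgv2, with 4 of 19 lower and 0 higher, among them Etv5 and Maf, transcription factors of γδ thymocytes, by -2.29 (SE 0.50) and -2.52 (SE 0.51), and Id3, a target of receptor signals, by -1.82 (SE 0.34). Of the 7 other segments tested 5 were lower and 0 higher, Tcrg-V4 by -2.65 and Tcrg-V1 by -2.84 among them. Their part in the result was not tested.

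From the Ptcra+Il2ra+ to the Ptcra+Il2ra- gate no member was called by edgeR, while 0.0158% of all genes were called higher and 0.0316% lower, 6 genes in all. At an unadjusted p under 0.05, 1145 of 12676 genes were below the threshold, with Tcrg-C1, Tcrg-C2, Tcrg-C3 and Trgv2 among them and all lower, and DESeq2 called 4 genes. No pathway gene and no other segment was called.

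**Figure D3:**
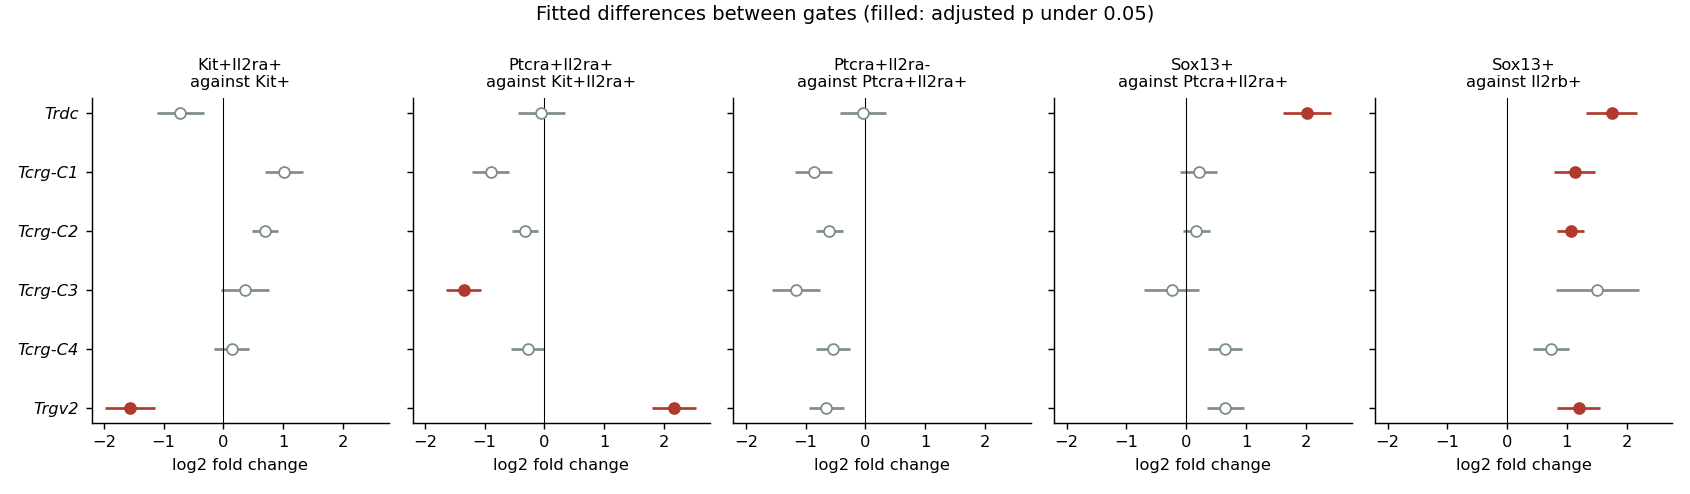
Fitted log2 fold change (x axis) of each gene (y axis) between pairs of gates over the 3 runs, with its SE as the bar; filled points had an adjusted p under 0.05 in edgeR. Trdc was called in both comparisons of the Sox13+ gate, at 2.02 and 1.75, and in none of the other 3.

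The share that each constant gene took of the summed UMIs of all 4 described which constant gene was in use. Background was not taken out, so it weighs more on the shares of a gate with little γ RNA. UMIs of a 3′ library count molecules and were not scaled by transcript length. Over all cells Tcrg-C1 took 36.8%, 46.6% and 42.9% in the 3 runs, Tcrg-C2 40.9%, 37.1% and 34.9%, Tcrg-C4 22.1%, 15.9% and 22% and Tcrg-C3 0.288%, 0.312% and 0.172%.

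The share of Tcrg-C1 fell stepwise over the Kit+Il2ra+, Ptcra+Il2ra+ and Ptcra+Il2ra- gates. The Kit+ gate lay below the Kit+Il2ra+ gate in 3 of 3 runs, at 33.6%, 47.5% and 37.7%. In the Kit+Il2ra+ gate the share was 46.3% (44.0% to 48.6%), 49.4% (48.6% to 50.2%) and 49.5% (48.7% to 50.3%). The Ptcra+Il2ra+ gate had 34.2% (33.4% to 34.9%), 43.2% (42.7% to 43.8%) and 39.0% (38.4% to 39.7%), and the Ptcra+Il2ra- gate 30.7% (29.7% to 31.7%), 39.0% (37.5% to 40.4%) and 33.4% (31.0% to 35.9%). From Kit+Il2ra+ to Ptcra+Il2ra+ and on to Ptcra+Il2ra-, the intervals did not overlap in any run. Tcrg-C2 took up much of the difference. Its share was 34.8%, 35.8% and 33.5% in the Kit+Il2ra+ gate, 43.5%, 40.6% and 38.6% in the Ptcra+Il2ra+ gate and 47.9%, 40.6% and 43.3% in the Ptcra+Il2ra- gate. With 3 runs an exact paired permutation test cannot reach the threshold, so the direction is given as a count. Tcrg-C1 fell in 3 of 3 runs at both steps. Tcrg-C2 and Tcrg-C4 each rose in 3 of 3 at the first step and in 2 of 3 at the second.

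Tcrg-C4 took its largest share in the Il2rb+ gate in each run. In the Sox13+ gate it held 29.3% (27.2% to 31.5%), 18.5% (17.3% to 19.7%) and 29.7% (28.6% to 30.8%) of the γ constant UMIs, and in the Il2rb+ gate 32.9% (27.6% to 38.5%), 24.9% (23.6% to 26.1%) and 34.1% (32.7% to 35.6%). The Ptcra+Il2ra+ gate had 22.2%, 16% and 22.2%. Both gates exceeded it in each run. The Kit+ gate, which held Sox13 and Etv5 transcripts, was also above it, at 28.0%, 17.1% and 30.2%, and in the second run the Ptcra+Il2ra- gate, at 20.3%, lay above the Sox13+ gate. The step from Ptcra+Il2ra+ to Sox13+ was smallest in the second run, at 2.5 points against 7.1 and 7.5 in the first and the third, the runs that held sorted TCRγδ+ cells. With cells thinned to 2000 UMIs the shares of the Sox13+ gate were 26.2%, 19.8% and 26.6%. In the third run the B gate held Tcrg-C1, Tcrg-C2 and Tcrg-C4 at 81.3, 62.8 and 58.3 CPM, with a Tcrg-C4 share of 28.8%. The Il2rb+ gate of that run held them at 164, 163 and 169.7 CPM. The part of background in the Tcrg-C4 share of the Il2rb+ gate was not tested.

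**Figure D4:**
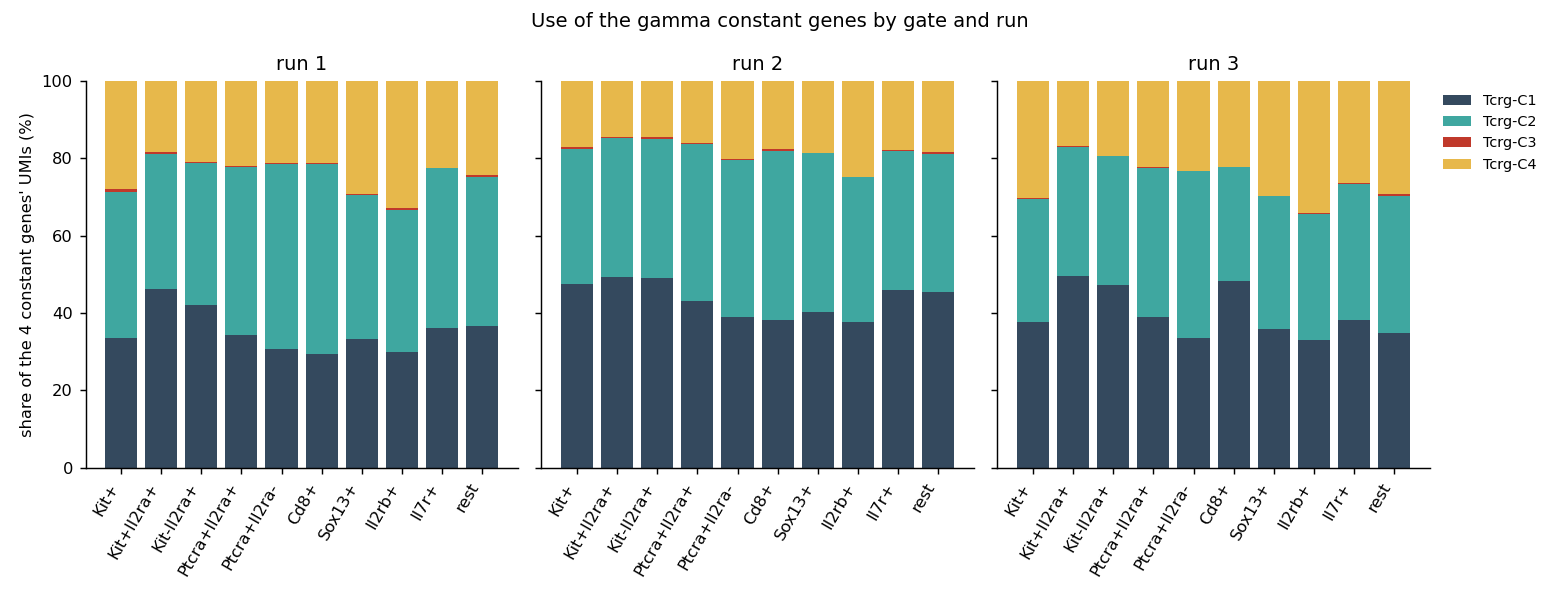
Share of the summed UMIs of the 4 γ constant genes that each gene took (y axis, %) by transcript gate (x axis), in 1 panel per run. Outside the B and myeloid gates the share of Tcrg-C1 is highest in the Kit+Il2ra+ gate, at 46.3% to 49.5%, and lower in the Ptcra+Il2ra- gate, at 30.7% to 39.0%; Tcrg-C4 is largest in the Il2rb+ gate, at 24.9% to 34.1%.

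Trgv2 lies next to Tcrg-C2 on the same strand. Cells with and without a Trgv2 UMI were therefore compared within a gate, a comparison added after values by gate had been seen. A Trgv2 UMI was counted on the segment itself. Whether the molecule was rearranged or joined to a constant gene was not tested. In the Ptcra+Il2ra+ gate, Tcrg-C2 was at 769.6 CPM in cells with Trgv2 and 709.7 in cells without in the first run, at 1312 and 1125 in the second and at 441 and 344 in the third. Tcrg-C1 was at 503 and 597 CPM, 1001 and 1267, and 371 and 481. Tcrg-C2 was thus higher and Tcrg-C1 lower beside Trgv2 in all 3 runs. The log2 differences were 0.22 for Tcrg-C2 (SE 0.05, adjusted p = 0.039) and -0.33 for Tcrg-C1 (SE 0.05, adjusted p = 0.00246) in edgeR, with 3 sums on each side. Both lost the call without the second run, with adjusted p of 0.355 and 0.0559. Trdc and Tcrg-C4 differed by -0.08 and 0.01, with adjusted p of 0.809 and 1 from edgeR, and Tcrg-C3 by -0.75 (SE 0.38), with an adjusted p of 0.604. The order of Tcrg-C2 was not the same in every gate. In the Kit-Il2ra+ gate, where no test was made, Tcrg-C2 was lower beside Trgv2 in the first run, at 909 against 1049 CPM. There it was at 1587 against 1517 CPM in the second run and at 449 against 470.3 in the third.

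In this split 0.181% of 10480 genes were called higher and 0.286% lower, Trgv2 itself included, which the split fixed. Tcrg-C1 and Tcrg-C2 were called with 46 genes that are no members. Of these, 8 histone genes were lower in cells with Trgv2 and 0 higher, and Aspm and Knl1, genes of cell division, were lower by -0.66 and -0.58. Cpa3 and Spi1, genes active before the DN3 stage, were lower by -1.14 (SE 0.10, adjusted p = 1.1e-06) and -1.28 (SE 0.26, adjusted p = 0.0212), and Tcrg-V4, another γ segment, was higher by 1.46 (SE 0.24, adjusted p = 0.00676) in edgeR. These were chosen after their values were seen, and their part in the result was not tested. Cells with Trgv2 were deeper in the first run, at a median of 5932 against 5152 UMIs, and shallower in the third, at 8042 against 9978.

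In the Sox13+ gate the difference in Tcrg-C2 was widest, as a ratio, in the third run. The levels were 462 CPM (442 to 482) in 512 cells with Trgv2 and 200.4 CPM (177 to 226) in 181 cells without. The first and the second runs had 1169 against 977 CPM and 1527 against 1183 CPM, from 24 and 48 cells with Trgv2. In the first run the intervals overlapped (982 to 1381 and 895 to 1065). Trdc and Tcrg-C4 were higher beside Trgv2 in all 3 runs too. By run, Trdc was at 1542 against 1302 CPM, 2539 against 1920.4 and 1374 against 1127. Tcrg-C4 was at 966 against 758 CPM, 633 against 541 and 360.5 against 303. Tcrg-C1 was at 1085 against 864 CPM in the first run, 1207 against 1199 in the second and 413 against 447 in the third. For Tcrg-C2 the direction was the same in 3 of 3 runs, and the log2 difference of 0.61 (SE 0.15) did not pass, with an adjusted p of 0.394 from edgeR. Tcrg-C1 differed by 0.03 (SE 0.11), Tcrg-C4 by 0.25 (SE 0.11) and Trdc by 0.29 (SE 0.08), and none passed. The Il2rb+ gate of the third run showed the same order without a test. Tcrg-C2 was at 282 CPM in 437 cells with Trgv2 and 70.1 CPM in 665 without. The second run had 934 and 344 CPM from 57 and 1376 cells. The order was not particular to Tcrg-C2. In the third run Tcrg-C1 was at 209 against 128 CPM, Tcrg-C4 at 251 against 106 and Trdc at 324 against 91.5. In the second run they were at 791 against 351, 362 against 240.5 and 536 against 146 CPM. In the split of the Sox13+ gate 0.0278% of 7187 genes were called higher and 0.125% lower. Of the 10 genes called other than Trgv2, Ly6c2 was lower in cells with Trgv2 by -2.85, the antibody genes Jchain and Igha by -7.26 and -7.15, and Gzma, a granule protease, was higher by 0.53. These too were named after their values were seen.

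Tcrg-V4, a γ variable segment at chr13:19184974-19185506 near Tcrg-C1, was counted often enough for the same split in the third run alone, so no test was made. In the Sox13+ gate, Tcrg-C1 was at 476 CPM in 237 cells with Tcrg-V4 and 391 in 456 cells without, and Tcrg-C2 at 417 and 394 CPM. In the Ptcra+Il2ra+ gate the order for Tcrg-C1 was the opposite, at 386 and 416 CPM.

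**Figure D5:**
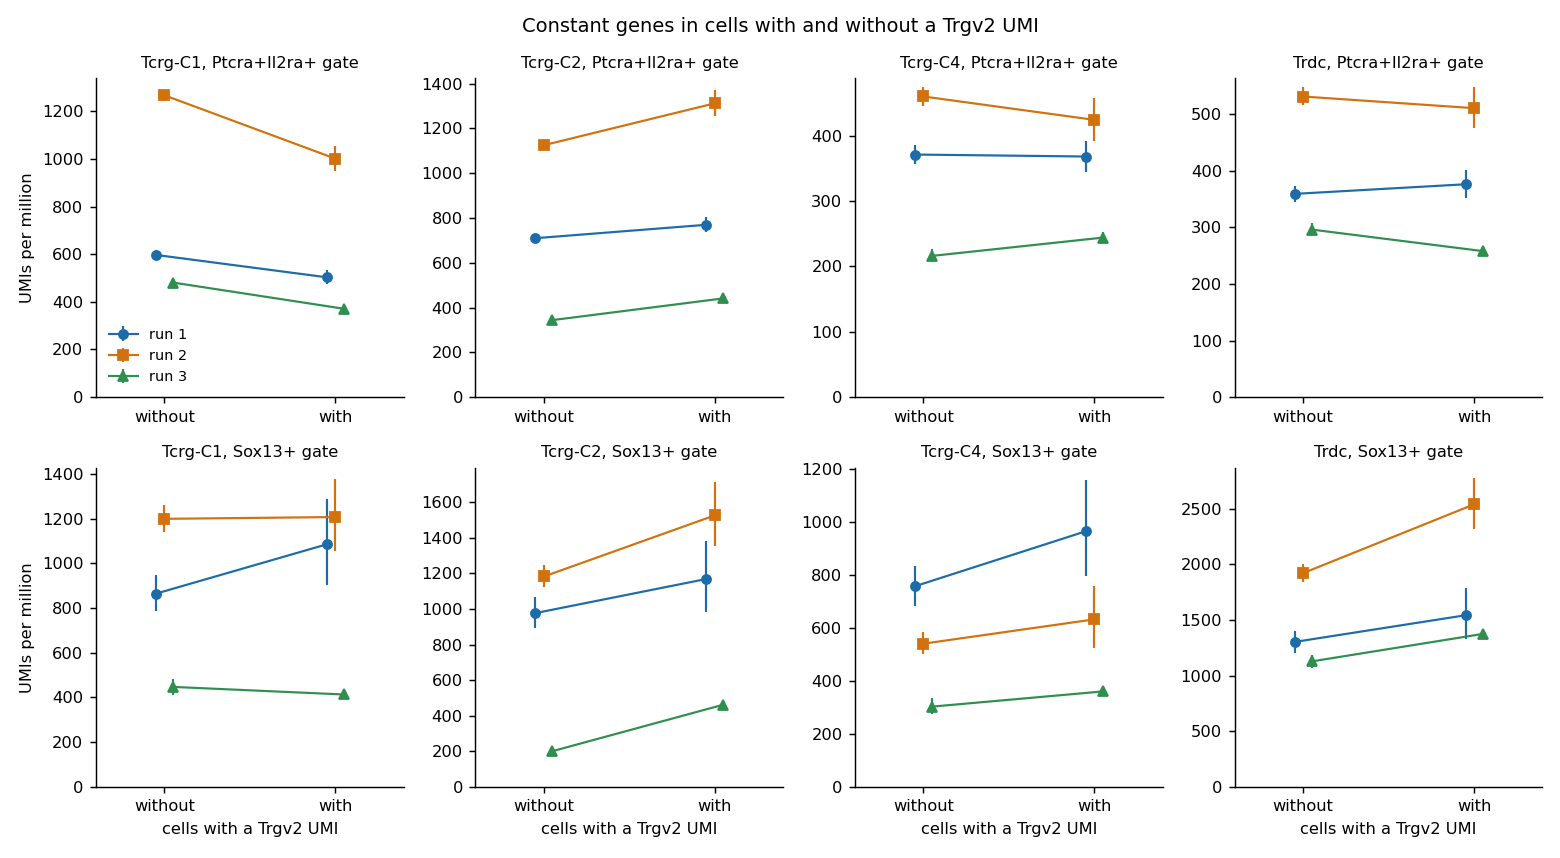
Level of 3 γ constant genes and Trdc (y axis, CPM) in cells without and with a Trgv2 UMI (x axis) of the Ptcra+Il2ra+ gate (upper row) and the Sox13+ gate (lower row), with 1 line per run and exact 95% Poisson intervals. Tcrg-C2 is higher beside Trgv2 in all 6 lines, and in the Sox13+ gate of the third run the levels are 462 and 200.4. In the Sox13+ gate Tcrg-C4 and Trdc are higher beside Trgv2 in all 3 runs too, and Tcrg-C1 is at 1085 against 864 in the first run.

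Of 20 other segments of the γ and δ loci listed in at least 1 run, 19 were listed under the same symbol in all. Tcrg-V1 carried its symbol in the third run alone. With genes matched by identifier, 7 segments passed the filter on low counts in the fit of gates. No UMI fell on the joining segments Trgj1 to Trgj4 or on Trdd1, Trdd2, Trdj1 and Trdj2 in any run. Among the 19, Tcrg-V4 was the most counted in the second and the third runs, at 1.16 and 18.1 CPM over all cells. It had a UMI in 14.3% of cells of the third run. In the first run it was at 1.11 CPM, below Trdv2-2. In the third run Tcrg-V1 had 881 UMIs in 8.43% of cells and stood at 38.1 CPM in the Sox13+ gate. Over all cells Trdv2-2 was at 1.51, 0.969 and 3.55 CPM. In the Sox13+ gate Trdv2-2 was at 9.27, 10.2 and 23.2 CPM, and Trdv5 at 1.55, 7.25 and 18.2 CPM. Against the Ptcra+Il2ra+ gate 6 of the 7 segments tested were called higher in Sox13+ cells and 0 lower. Trdv2-2 was higher by 3.98 (SE 0.37) and Trdv5 by 3.09 (SE 0.42), with adjusted p of 9.86e-09 and 3.74e-06 in edgeR. Of the 19 pathway genes, 10 were higher and 4 lower there, with a median of 0.42 against -0.01 over all genes. Etv5 and Blk, a kinase of γδ thymocytes, were higher by 6.13 (SE 0.43) and 4.23 (SE 0.47), and Rag1 and Rag2 lower by -5.00 (SE 0.54) and -3.57 (SE 0.38). Cd247, the ζ chain of the receptor complex, was higher by 1.74 (SE 0.20).

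The genes whose levels were most like those of a member were read over the 28 sums of gates and runs with 50 or more cells, among 9859 genes. These sums share libraries, so correlations are a description. For Trdc they were Cd247, Gata3 and Bpgm, at Pearson r of 0.91, 0.90 and 0.90. Once the mean of each run was taken out, Nrip1, St8sia1 and Dipk2a came first, at 0.95, 0.94 and 0.93. Among the members, Tcrg-C1, Tcrg-C2 and Tcrg-C4 were close to each other, with r of 0.96 between Tcrg-C1 and Tcrg-C2, 0.93 between Tcrg-C1 and Tcrg-C4 and 0.94 between Tcrg-C2 and Tcrg-C4, while Trdc had r of 0.53 to 0.66 with these genes. Outside the members, Tcrg-C1 was nearest to Rab38 (0.91), Tcrg-C2 to Ngly1 (0.92), Tcrg-C3 to Bpifc (0.92), Tcrg-C4 to Gm11713 (0.89) and Trgv2 to Zfp398 (0.92). With run means taken out, the nearest were Rab27a (0.93) for Tcrg-C1, Gmfg (0.92) for Tcrg-C2, Nfe2 (0.90) for Tcrg-C3 and Atp8b4 (0.92) for Tcrg-C4. The nearest to Trgv2 was then Pgs1 (0.87), followed by Cd3d (0.82).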

How the data were processed

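Per the labels and the methods of the study, the authors aligned 10x 3′ reads to mm10 with Cell Ranger (version 4.0.0 in the header of the third run, not given for each of the others in the sources used here) then deposited unnormalized UMI counts for the cells it called. The limits on cells were 500 to 5000 genes and 7% mitochondrial counts, and members were read by symbol. UMIs totaled 39947415, 52797915 and 98533329. Scrublet in scanpy 1.11.5 marked 0, 449 and 221 doublets and so did not work in the first run. Doublets were kept, and the cells with the highest scores (700, 750 and 750) were left out as an alternative.

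Counts were summed per gate and run for gates with 20 or more cells (32 sums) and tested with edgeR 4.0.16 in R 4.3.3, by its two-sided quasi-likelihood test after TMM scaling and filterByExpr. Adjusted p-values follow Benjamini-Hochberg across every gene tested, with a threshold of 0.05. The run was the block, as gates of a run share 1 library, so level differences between runs were taken out. The p-values rest on how differences between gates vary across 3 single libraries of different sorts. This spread was pooled over all gates of the fit, with 18 residual degrees of freedom, and not taken from the compared gates alone. The Trgv2 splits were fitted apart, with 2 residual degrees of freedom each. On simulated counts for the Sox13+ against Ptcra+Il2ra+ comparison the test was checked for recovery of known changes. Alternatives were DESeq2 1.42.0, library size alone, no low-count filter, no replicate block, each run left out, other cell limits, gates at 2 UMIs and thinning to 2000 UMIs. The named genes were all members, a fixed list of pathway genes and segments, and the 3 genes most like each member. Members and lists were chosen with earlier results of these data known.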

Additional observations from a re-analysis of the deposited data

How the results depend on the processing

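Of 405 settings tried for a single member in a single comparison, 363 left the call as it was, 30 lost it and 12 gained it, and none turned a called direction. The number of genes called moved more. Without the replicate block (that is, without the run as a term) the counts were 1 for Kit+Il2ra+ against Kit+ (286 with it), 4 for Ptcra+Il2ra+ against Kit+Il2ra+ (668), 1 for Ptcra+Il2ra- against Ptcra+Il2ra+ (6), 267 for Sox13+ against Ptcra+Il2ra+ (4049) and 166 for Sox13+ against Il2rb+ (2743), and 1 and 0 in the Trgv2 splits of the Sox13+ (11) and Ptcra+Il2ra+ (49) gates. All member calls were then lost except that of Trdc between Sox13+ and Ptcra+Il2ra+. Leaving out each run gave, in the same order, 5 to 1119, 101 to 1112, 1 to 82, 887 to 5064, 662 to 3570, 10 to 23 and 15 to 218 genes. Thinning gave 2, 91, 10 and 1593 in the first 4 comparisons, gates at 2 UMIs gave 100 and 2 in the first and the third, and DESeq2 100 in the first. For Ptcra+Il2ra- against Ptcra+Il2ra+, 52 genes were called with no upper limit on genes, 102 with doublets left out and 47 with no filter on low counts.

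The share of cells with a Trdc UMI was 57.5%, 50% and 50.7% at 2 or more UMIs, 51.0%, 44.5% and 38.0% at 2000 UMIs a cell, 32.5%, 32.2% and 25.8% at 1000 UMIs and 75.6%, 59.9% and 62.5% with doublets left out. It was 63.2% in the second run at a mitochondrial limit of 5% and 65.7% in the third with no upper limit on genes. The Trdc level of the Sox13+ gate was 1538, 2757 and 1490.1 CPM with gates at 2 UMIs and 1527, 2216 and 1506 CPM after thinning. With doublets left out it was 2095 and 1401 CPM in the second and the third run, and with no upper limit on genes 1251 CPM in the third. In cells with a single γ constant gene the Tcrg-C1 share was 28.2%, 42.3% and 41.3% over all cells, and the Tcrg-C4 share of the Sox13+ gate 0%, 13.8% and 23.1%, the first from 2 cells. With doublets left out the Tcrg-C1 share of the third run was 43.3%. After thinning the Tcrg-C4 share of the Sox13+ gate was 26.2%, 19.8% and 26.6%. The cause of these differences was not tested. With library size alone the median of all genes between Sox13+ and Il2rb+ was 0.17 in place of -0.04. The splits by Trgv2 and their alternatives were chosen after seeing the data. Tcrg-C3, with 129 to 438 positive cells a run, limits what could be detected.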
